A study of Mus musculus with 6 samples.

Results

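The interleukin 6 family is the group of cytokines that signal through the shared receptor subunit gp130, together with their receptors and feedback inhibitor. The 10 genes described here are the ligands Il6, Il11, Lif, Osm and Clcf1, the receptor genes Il6st, Il6ra, Osmr and Lifr, and Socs3. They were chosen by name, as the rows of the deposited expression table that carry these gene symbols. All 10 were found among the 17924 genes of the table, and all 10 passed the filter on low values that left 16252 genes to be tested.

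RNA-seq was performed on mouse cells of a C57BL/6J background that had been grown from dermal fibroblasts of newborn (P0) dorsal skin and kept in adipocyte differentiation medium for 14 days. The control (CTL) group was Nelfb fl/wt or Nelfb wt/wt with Pdgfra-Cre, and the labels do not say which of the 2 genotypes a CTL library had. The Nelfb-/- group was Nelfb fl/fl with Pdgfra-Cre, so that both groups carried the Cre transgene. Pdgfra-Cre recombines in fibroblasts and adipocyte progenitors, and the cultures were not sorted, so cells of other origin could be present with an intact Nelfb gene. Each group had 3 biological replicates, and Nelfb encodes a subunit of the negative elongation factor, which holds RNA polymerase II in a paused state shortly after initiation.

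In this family, each ligand brings a receptor complex together around gp130, the product of Il6st. Interleukin 6 first binds Il6ra, whereas leukemia inhibitory factor (Lif) uses Lifr with gp130, and oncostatin M (Osm) in the mouse uses mainly Osmr with gp130. The assembled complex activates JAK kinases and STAT3, and STAT3 switches on Socs3, whose protein blocks the same receptors. Adipocyte progenitors and fibroblasts are known sources of Il6 and Lif, and gp130 ligands are known to affect the formation of adipocytes.

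The targeted gene Nelfb was measured at 17.3, 19.6 and 22.3 CPM in CTL, against 5.50, 3.90 and 5.55 CPM in Nelfb-/- cells, a difference of -1.99 on the log2 scale (SE 0.22, adjusted p = 0.0050 from limma). Transcript of the gene was thus still counted in all 3 Nelfb-/- libraries, at 3.90 to 5.55 CPM. Depth was between 17.2 and 29.4 M reads per library, so that 3 reads corresponded to between 0.102 and 0.175 CPM. This depth limits Il6, Il11 and Osm most, since their values rest on few reads. CTL replicate 3 and Nelfb-/- replicate 1 each stood apart from the other libraries of their group, on a component with 27.7% of the variance between libraries.

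Expression was higher in Nelfb-/- cells for 5 of the 10 genes, and 0 were called lower; at an unadjusted p under 0.05 from limma, 8 had a positive and 1 a negative change, beside 19.6% and 12.9% of all genes tested. The 5 genes were the ligands Il6, Il11 and Lif, the receptor Osmr and the inhibitor Socs3. With 1 library left out, 2 of the 10 were called higher without CTL replicate 1, CTL replicate 2 or Nelfb-/- replicate 2, and 1, Il6, without Nelfb-/- replicate 3, while 6 were called without CTL replicate 3 or Nelfb-/- replicate 1. A gene was called when its adjusted p from limma, over all genes tested, was at most 0.05 and its change at least 2-fold. Of all genes tested, 11.2% were called in either direction, 7.58% higher and 3.64% lower in Nelfb-/- cells. The median log2 fold change of the 10 genes was 1.85, beside 0.068 for all genes tested, and 9 of the 10 values were positive, beside 54.6% of all genes tested. Il6 is the highest of the 10 values, so the treatment of its near-zero CTL level cannot move this median. The groups did not overlap at 7 genes, with all Nelfb-/- libraries above CTL, which was the case for 22% of all genes tested. The opposite was seen at 0 of the 10 genes and at 16.1% of all genes tested. Since these are bulk cultures, a change in the share of one kind of cell and a change of RNA per cell cannot be told apart.

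**Figure D1:**
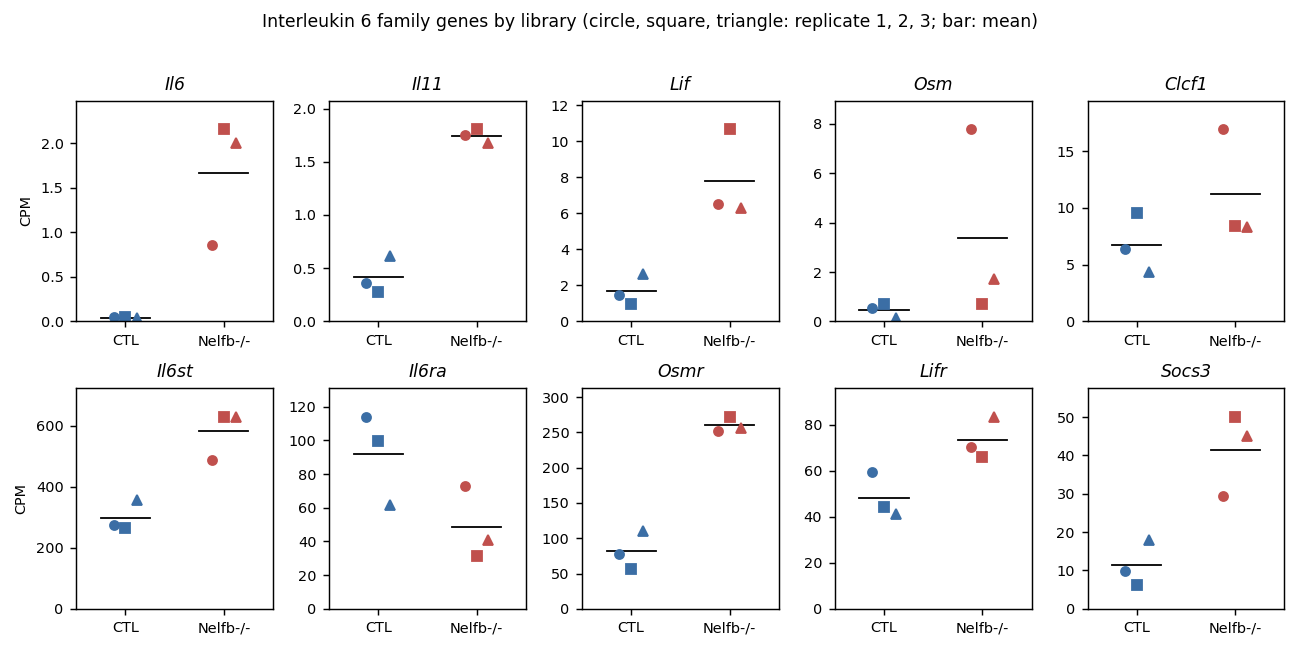
Expression of the 10 genes in each library, in CPM (reads of a gene per 1e+06 reads) on linear axes that start at 0, with CTL in blue, Nelfb-/- in red and a bar at the mean of 3 libraries. Il6, Il11, Lif, Il6st, Osmr, Lifr and Socs3 show no overlap between groups, the Osm mean of Nelfb-/- cells rests on replicate 1 at 7.78 CPM, and Il6ra is the gene whose mean is lower in Nelfb-/- cells.

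The stretches of DNA just upstream of a RefSeq start are shown for Il6, Il11, Lif and Socs3, 4 of the genes called higher. The stretches of Il11 and Socs3 lie inside the annotated genes, upstream of a RefSeq start within the gene. Binding of transcription factors to these stretches was not measured. The sequences are from RefSeq (GRCm38.p6), which gave a start for 8 of the 10 genes, all but Osm and Clcf1. Each run is printed 5′ to 3′ in the direction of the gene, covers up to 250 bases before the RefSeq start, and stops where an annotated exon begins. Capitals mark matches to motifs, which were searched on both strands.
Il6, chr5:30012864-30013113, plus strand: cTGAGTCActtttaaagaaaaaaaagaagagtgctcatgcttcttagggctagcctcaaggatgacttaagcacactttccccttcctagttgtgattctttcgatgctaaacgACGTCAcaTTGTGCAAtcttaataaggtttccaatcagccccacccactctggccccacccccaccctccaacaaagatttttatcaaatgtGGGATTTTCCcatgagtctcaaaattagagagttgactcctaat
Il11, chr7:4778142-4778391, minus strand: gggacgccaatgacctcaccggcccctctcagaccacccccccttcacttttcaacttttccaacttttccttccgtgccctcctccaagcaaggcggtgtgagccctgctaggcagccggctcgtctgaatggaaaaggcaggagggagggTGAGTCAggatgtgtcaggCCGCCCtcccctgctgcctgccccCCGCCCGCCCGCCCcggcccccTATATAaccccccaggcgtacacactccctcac
Lif, chr11:4257318-4257556, plus strand: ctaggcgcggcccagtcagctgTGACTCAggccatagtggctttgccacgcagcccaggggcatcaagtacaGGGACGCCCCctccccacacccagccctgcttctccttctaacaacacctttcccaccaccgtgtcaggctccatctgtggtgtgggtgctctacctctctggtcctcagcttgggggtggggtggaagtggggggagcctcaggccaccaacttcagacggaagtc
Socs3, chr11:117969452-117969616, minus strand: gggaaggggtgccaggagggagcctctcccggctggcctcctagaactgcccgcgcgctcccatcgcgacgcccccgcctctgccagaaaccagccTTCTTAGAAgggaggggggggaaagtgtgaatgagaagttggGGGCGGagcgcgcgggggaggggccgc

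The AP-1 motif TGANTCA was found in the stretches of all 3 ligands, 249 to 243 bases before the start of Il6, 98 to 92 bases before that of Il11 and 228 to 222 bases before that of Lif. AP-1 is the factor of Fos and Jun proteins. The motif was present in 6.75% of the 32851 windows of 250 bases before RefSeq starts. An NF-kappaB motif lay 44 to 35 bases before the start of Il6 and 178 to 169 bases before that of Lif, and 7.25% of all windows held one. In Il6 there were also the core of the cAMP response element, ACGTCA, and the C/EBP motif TTGNGCAA, which were present in 6.47% and 2.61% of all windows. The Il11 stretch held TATANA 33 to 28 bases before the start, a motif in 22.6% of windows, and 4 GC boxes (GGGCGG), of which the 3 nearest to the start overlap one another. The STAT motif TTCNNNGAA lay 154 to 146 bases before the start of Socs3 and was present in 7.02% of all windows, and the GC box in 32.7%. Matching letters describe a sequence and do not show that a factor was bound in these cells. The windows of Osmr and Il6ra lay inside annotated exons, as did most of that of a second RefSeq start of Il11, and they are not printed.

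Among the ligands, Il6 was close to the limit of detection in CTL cells and measurable in all Nelfb-/- libraries. Il6 (ENSMUSG00000025746, chromosome 5 from 30013114 to 30019981 on mm10) encodes interleukin 6, the founding cytokine of the family and an inducer of the acute phase response. Its level was 0.0451, 0.0467 and 0.0340 CPM in CTL replicates 1, 2 and 3, which is 1 read in each library. In Nelfb-/- replicates 1, 2 and 3 it was 0.853, 2.15 and 2.0 CPM, or 18, 37 and 49 reads. All CTL libraries were thus under the floor of 3 reads that a count of 0 allows, and all Nelfb-/- libraries were well above it. With 3 of 73.0 M reads in CTL and 104 of 62.8 M reads in Nelfb-/- cells (M, 1e+06), the ratio was 40.3, with an exact 95% interval for counting error alone of 13.4 to 199. Against a CTL mean at the floor, the Nelfb-/- mean was 13.3-fold higher. The fitted log2 fold change on the scale of log2(reads + 1) was 4.2 (SE 0.50, limma, adjusted p = 0.0060). Its call was kept in all 6 fits that each left out 1 library, with an adjusted p from limma between 0.0091 and 0.046.

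Il11 (ENSMUSG00000004371, chromosome 7 from 4772373 to 4782859) encodes interleukin 11, a cytokine that acts on stromal cells and is linked to fibrosis. CTL replicates 1, 2 and 3 had 0.361, 0.280 and 0.612 CPM, from 6 to 18 reads. The Nelfb-/- replicates had 1.75, 1.80 and 1.67 CPM, from 31 to 41 reads. The Nelfb-/- libraries were close together and none overlapped with CTL. By limma, the log2 fold change was 2.02 with an SE of 0.38 (adjusted p = 0.019). This call was lost when CTL replicate 1 or 2, or Nelfb-/- replicate 2 or 3, was left out, with an adjusted p from limma of up to 0.087.

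Lif (ENSMUSG00000034394, chromosome 11 from 4257557 to 4272514) encodes leukemia inhibitory factor, known for keeping stem cells undifferentiated. In the CTL replicates it was at 1.44, 0.980 and 2.62 CPM. The Nelfb-/- replicates had 6.50, 10.7 and 6.28 CPM, so the lowest of them was above the highest CTL library, replicate 3. By limma, the log2 fold change was 2.26 with an SE of 0.42 (adjusted p = 0.018). As for Il11, the call was lost when CTL replicate 1 or 2, or Nelfb-/- replicate 2 or 3, was left out, with an adjusted p from limma of up to 0.069.

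The other 2 ligands did not pass the test, and in both of them 1 Nelfb-/- library stood far above the other two. Osm (ENSMUSG00000058755, chromosome 11 from 4236420 to 4241026), a cytokine made mainly by macrophages and other blood cells, was measured at 0.541, 0.700 and 0.136 CPM in CTL, against 7.78, 0.699 and 1.71 CPM in Nelfb-/- cells. Nelfb-/- replicate 2 was level with CTL replicate 2, and replicate 1 was higher than any other library. The log2 fold change was 2.34 (SE 0.96, 95% CI 0.035 to 4.64, limma, adjusted p = 0.15). With 1 library left out it lay between 1.41, without Nelfb-/- replicate 1, and 3.11, without Nelfb-/- replicate 2. The summed level of 12 macrophage markers was 871, 458 and 245 CPM in CTL replicates 1, 2 and 3. The Nelfb-/- replicates had 7499, 2382 and 4039 CPM. The library with the most Osm was also the one with the highest macrophage sum, and CTL replicate 3 was lowest in both. The other libraries did not all keep this order, since CTL replicate 2 had more Osm than CTL replicate 1 at a lower macrophage sum, and Nelfb-/- replicate 2 had no more Osm than CTL replicate 2 at a higher one. The part of macrophages in the Osm values was not tested.

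Clcf1 (ENSMUSG00000040663, chromosome 19 from 4214238 to 4223490) encodes cardiotrophin-like cytokine factor 1, which acts through the ciliary neurotrophic factor receptor. It had 6.40, 9.52 and 4.39 CPM in CTL, against 16.9, 8.44 and 8.32 CPM in Nelfb-/- cells. The groups overlapped, with CTL replicate 2 above Nelfb-/- replicates 2 and 3. The log2 fold change was 0.71 (95% CI -0.23 to 1.66, limma, adjusted p = 0.26). With 1 library left out it lay between 0.38, without Nelfb-/- replicate 1, and 0.99, without CTL replicate 2. The annotated gene AC109138.7 covers 9134 bases of Clcf1 on the same strand, so that some reads of Clcf1 are uncertain.

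Of the 4 receptor genes, Osmr rose, Il6st and Lifr had positive values that missed the call, and Il6ra had a negative value that missed it. Il6st (ENSMUSG00000021756, chromosome 13 from 112464070 to 112510086), which encodes gp130, was the most abundant member. It was measured at 275, 264 and 357 CPM in CTL, against 489, 630.0 and 629 CPM in Nelfb-/- cells, without overlap. Its change of 0.97 on the log2 scale (SE 0.20, adjusted p = 0.023 from limma) was just under the 2-fold limit. It passed the limit without CTL replicate 3, at 1.10, and without Nelfb-/- replicate 1, at 1.09 (limma, adjusted p = 0.014 and 0.021). In each of the other 4 fits with 1 library left out, the change was between 0.89 and 0.92 and the adjusted p from limma rose to between 0.083 and 0.11.

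Osmr (ENSMUSG00000022146, chromosome 15 from 6813577 to 6874969) encodes the oncostatin M receptor subunit, which is abundant on fibroblasts. CTL replicates 1, 2 and 3 had 78.1, 55.8 and 111 CPM. Nelfb-/- replicates 1, 2 and 3 had 251, 272 and 256 CPM, a narrow range that lay above all CTL libraries. The group means were 81.5 ± 27.6 and 260.0 ± 11 CPM (SD, n = 3), and the change of 1.73 on the log2 scale (SE 0.25, adjusted p = 0.0095 from limma) corresponds to 3.31-fold. It missed the threshold without Nelfb-/- replicate 3 (limma, adjusted p = 0.053).

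Lifr (ENSMUSG00000054263, chromosome 15 from 7090614 to 7197489), the receptor subunit for Lif, had 59.3, 44.2 and 41.2 CPM in CTL, against 70.5, 65.8 and 83.4 CPM in Nelfb-/- cells. All Nelfb-/- libraries were above all CTL libraries, by a log2 fold change of 0.61 (SE 0.18, 95% CI 0.17 to 1.05, limma, adjusted p = 0.070). Il6ra (ENSMUSG00000027947, chromosome 3 from 89864059 to 89913196), which gives a cell its own response to interleukin 6, had 114, 99.7 and 61.6 CPM in CTL. In Nelfb-/- cells it had 73.2, 31.1 and 41.0 CPM. The groups overlapped, because CTL replicate 3 was below Nelfb-/- replicate 1. By limma, the log2 fold change was -0.97 with an SE of 0.37 (adjusted p = 0.13). Without Nelfb-/- replicate 1 it was -1.31 (limma, adjusted p = 0.039), which is a call for lower expression, whereas it was -0.70 without Nelfb-/- replicate 2 and -0.79 without CTL replicate 1 (limma, adjusted p = 0.30 and 0.32). Without both CTL replicate 3 and Nelfb-/- replicate 1, a choice made after the data were seen, it was -1.58 (limma, adjusted p = 3.1e-04).

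Socs3 (ENSMUSG00000053113, chromosome 11 from 117966079 to 117970047) encodes the inhibitor that STAT3 induces and that ends signaling from gp130. Its level was 9.74, 6.25 and 18.0 CPM in CTL, against 29.4, 50.1 and 45.0 CPM in Nelfb-/- cells. The highest CTL library, replicate 3, was below the lowest Nelfb-/- library, replicate 1. By limma, the log2 fold change was 1.97 with an SE of 0.41 (adjusted p = 0.025), or 3.92-fold. The call was lost when CTL replicate 1 or 2, or Nelfb-/- replicate 2 or 3, was left out, with an adjusted p from limma of up to 0.098.

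**Figure D2:**
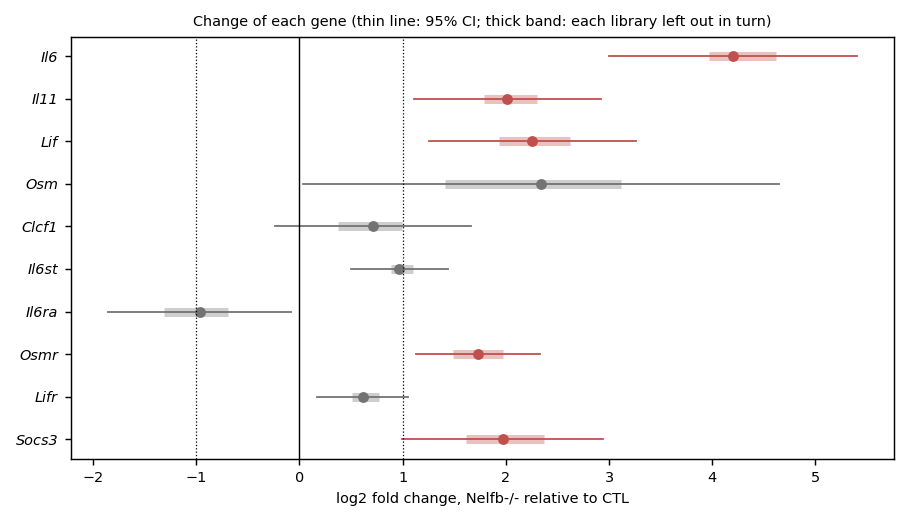
Log2 fold change of each gene in Nelfb-/- cells relative to CTL, with the 95% confidence interval as a thin line and, as a thick band, the range when each of the 6 libraries was left out in turn; red marks genes called higher and dotted lines the 2-fold limits. Il6 lies farthest from 0 at 4.2, Osm has the widest interval, and the bands keep their sign for all 10 genes.

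The fibroblast markers summed to 4951, 4302 and 16582 CPM in CTL and to 8037, 30119 and 32764 CPM after deletion of Nelfb, and CTL replicate 3 was above Nelfb-/- replicate 1. Of these 7 markers, 0 were called (limma), 6 had positive values and 3 were higher at an unadjusted p under 0.05. In CTL, replicate 3 also had the highest Il11, Lif, Il6st, Osmr and Socs3, but the lowest Osm, Clcf1, Il6ra and Lifr. Among the Nelfb-/- libraries, replicate 1 had the lowest Il6, Il6st, Osmr and Socs3, but the highest Osm, Clcf1 and Il6ra, and neither the lowest nor the highest Il11, Lif and Lifr. The 9 adipocyte markers summed to between 18087 and 29417 CPM in CTL and between 9292 and 18428 CPM in Nelfb-/- cells. Of these markers, 1 was called higher (Lep), 1 was called lower (Retn) and 2 had positive values. Of the 12 macrophage markers, 11 were called higher and the groups did not overlap in their sum. For melanocytes, the 5 markers summed to at most 1.43 CPM in CTL and to between 30.3 and 72.1 CPM in Nelfb-/- cells. Neutrophil and mast cell markers summed to at most 10.4 CPM in any library, and 0 of 6 lymphocyte markers were among the genes analysed. Skeletal muscle markers, at 6.77 to 9.21 CPM in CTL, against 42.0 to 67.9 CPM in Nelfb-/- cells, and the sum of Schwann cell markers, at 41.9 to 57.1 and 86.0 to 109 CPM, were also higher without overlap, as were keratinocyte markers, at 2.75 to 3.17 and 6.69 to 14.6 CPM. Of the 3 Schwann cell markers tested, 2 were called higher and 1, Mbp, lower. Endothelial markers overlapped at 7.04 to 11.8 and 8.44 to 22.0 CPM. The part of these cells in the changes of the family was not tested.

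Per kilobase of exon, Il6st was the highest member in both groups, and the order of the next members differed. CTL cells had 26.9 CPM per kb of Il6st, followed by 10.6 of Il6ra, 6.73 of Osmr, 4.48 of Lifr and 3.92 of Socs3. The ranges of Il6ra, Osmr, Lifr and Socs3 each overlapped with the next one. Clcf1 followed at 1.78 CPM per kb, and Lif, Osm, Il11 and Il6 were at 0.386, 0.202, 0.201 and 0.0173. In Nelfb-/- cells the order began with 52.5 CPM per kb of Il6st, 21.5 of Osmr, 14.4 of Socs3 and 6.80 of Lifr, and the first 3 steps of this order were larger than the spread between libraries. Il6ra came next at 5.60 CPM per kb, and its range overlapped with that of Lifr. The ligands Clcf1, Lif, Osm, Il11 and Il6 were at 2.95, 1.80, 1.49, 0.838 and 0.687 CPM per kb, and neighbours in this order overlapped.

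**Figure D3:**
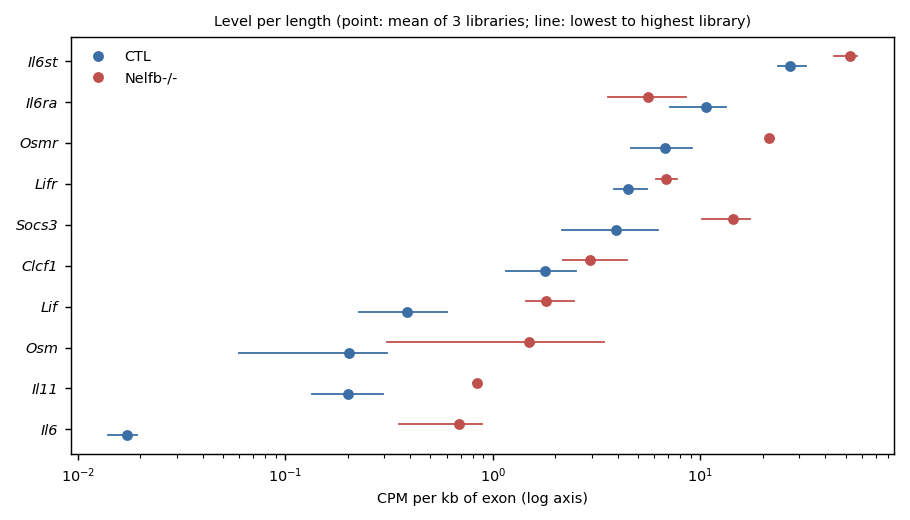
Level of each gene in CPM per kilobase of exon on a log axis, with the mean of 3 libraries as a point and the lowest to highest library as a line. The means of all 5 ligands lie below those of the 4 receptor genes in both groups, and Il6 moves from 0.0173 in CTL to 0.687 in Nelfb-/- cells.

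The balance between receptors was examined as ratios within each library, which do not depend on the scaling between libraries. Osmr and Lifr are the alternative partners of gp130, and the Osmr to Lifr ratio was 1.32, 1.26 and 2.68 in CTL replicates 1, 2 and 3. In the Nelfb-/- replicates it was 3.57, 4.14 and 3.07, higher in 3 of 3 libraries than in any CTL library, and the mean log2 difference was 1.12, or 2.17-fold. The Osmr to Il6st ratio was between 0.212 and 0.310 in CTL and between 0.407 and 0.514 in Nelfb-/- cells, a log2 difference of 0.76. The Il6ra to Il6st ratio was 0.415, 0.378 and 0.173 in CTL and 0.150, 0.0494 and 0.0651 in Nelfb-/- cells, lower in all 3, with a log2 difference of -1.94. The Lifr to Il6st ratios overlapped, with a log2 difference of -0.36 (exact two-sided permutation test, p = 0.3). For the first 3 ratios the exact two-sided permutation test gave p = 0.1 each, the smallest value that 3 against 3 libraries allow, and 0.13 after adjustment over the 4 ratios, so none could pass 0.05 in this design.

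**Figure D4:**
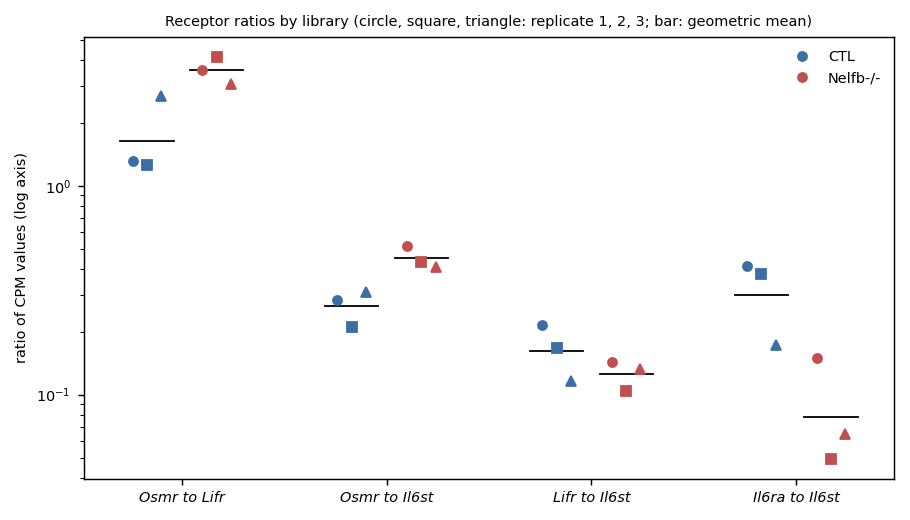
Ratio of the CPM values of 2 receptor genes in each library on a log axis, with CTL in blue, Nelfb-/- in red and a bar at the geometric mean. The Nelfb-/- libraries lie above CTL for Osmr to Lifr and Osmr to Il6st, below CTL for Il6ra to Il6st, and overlap with CTL for Lifr to Il6st.

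Further genes of the pathway were read from 7 lists of 78 genes, of which 69 were tested. Of these, 19 were called higher and 2 lower, which is 30.4% of the 69, beside 11.2% of all genes tested, and their median log2 fold change was 0.38. The count of genes called higher was 9 without CTL replicate 1 or 2, 10 without Nelfb-/- replicate 2 and 5 without Nelfb-/- replicate 3. The lists were chosen with earlier results of these data known, so their counts are a description.

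Among the other ligands and receptors of the family, Ctf1, which encodes the ligand cardiotrophin 1, fell from 3.21 ± 0.560 to 0.804 ± 0.340 CPM (SD, n = 3), a difference of -2.0 on the log2 scale (adjusted p = 0.019 from limma). Its call was lost when CTL replicate 1 or 2, or Nelfb-/- replicate 3, was left out, with an adjusted p from limma of up to 0.083. Il11ra1, the receptor for Il11, had 44.1 ± 15.1 CPM in CTL, against 42.2 ± 5.08 CPM in Nelfb-/- cells. Its log2 fold change was -0.017 (95% CI -0.61 to 0.58, limma, adjusted p = 0.97). Reads of Il11ra1 are uncertain because the mouse genome holds a near-identical copy, Il11ra2, which was not analysed here. Cntfr, the receptor for Clcf1, had a log2 fold change of 1.14 at a low level, from 0.904 ± 0.214 to 2.12 ± 0.803 CPM (limma, adjusted p = 0.10).

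Of the 2 proteases that release Il6ra from the cell surface, Adam10 rose by 1.17 on the log2 scale (adjusted p = 0.013 from limma), a call that was lost when CTL replicate 1 or 2, or Nelfb-/- replicate 3, was left out (limma, adjusted p up to 0.062). Of 12 signal transducers, Jak1, a kinase bound to gp130, was the gene called, a share of 8.33% beside the 11.2% of all genes. It rose from 249 ± 17.1 to 533 ± 10.2 CPM, a difference of 1.10 on the log2 scale (adjusted p = 0.0068 from limma), and kept its call in all 6 fits with 1 library left out. Stat3 had 207 ± 24.3 CPM in CTL, against 299.9 ± 64.4 CPM in Nelfb-/- cells, a difference of 0.52 on the log2 scale (adjusted p = 0.12 from limma).

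Beside Socs3, 8 other negative regulators were tested and 3, or 37.5%, were called higher, against 7.58% of all genes tested. Ptpn6, a phosphatase mainly of blood cells, rose from 1.65 ± 0.844 to 22.2 ± 6.17 CPM, a difference of 3.82 on the log2 scale (adjusted p = 0.0056 from limma). Nelfb-/- replicate 3 had the most Ptpn6, 29.3 CPM. Replicate 1 (18.5 CPM) and replicate 2 (18.7 CPM) were level, while their macrophage sums were 7499 and 2382 CPM. Among the CTL libraries, replicate 1 was highest in Ptpn6 (2.48 CPM) and in the macrophage sum. CTL replicate 2 had less Ptpn6 (0.793 CPM) than CTL replicate 3 (1.66 CPM) at a higher sum. Ptpn6 and the macrophage sum were each higher in Nelfb-/- cells without overlap. The part of macrophages in the Ptpn6 values was not tested. Ptpn1, a phosphatase that acts on JAK kinases, rose by 1.16 on the log2 scale (adjusted p = 0.0068 from limma). Socs1, a relative of Socs3, rose by 1.68 on the log2 scale (adjusted p = 0.042 from limma), but its call was lost when CTL replicate 1 or 2, or Nelfb-/- replicate 2 or 3, was left out (limma, adjusted p up to 0.14). Of 6 genes for factors that set the lifetime of Il6 mRNA, 1 was called, or 16.7%, beside 11.2% of all genes tested. The called gene was Arid5a, whose protein stabilizes this mRNA. Its level was 5.25 ± 1.88 CPM in CTL, against 20.5 ± 2.48 CPM in Nelfb-/- cells, a difference of 2.01 on the log2 scale (adjusted p = 0.0086 from limma; without Nelfb-/- replicate 3, adjusted p = 0.052).

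The median log2 fold change was 0.63 among 19 tested genes of 22 that respond to STAT3 or belong to the acute phase response. Of these, 7, or 36.8%, were called higher, beside 7.58% of all genes tested. The 4 with the largest changes were Saa3 and Orm2, which encode acute phase proteins, Timp1, an inhibitor of matrix proteases, and Serpina3n, a protease inhibitor. Their log2 fold changes were 2.50, 2.49, 2.25 and 1.84 (limma, adjusted p = 0.036, 0.031, 0.046 and 0.010). Serpina3n, the most abundant of them, had 316 ± 93.2 CPM in CTL, against 1109 ± 219.7 CPM in Nelfb-/- cells, and lost its call without Nelfb-/- replicate 3 (limma, adjusted p = 0.055). Saa3 lost its call without CTL replicate 2 or any 1 of the Nelfb-/- replicates, Orm2 without CTL replicate 1 or 2 or any 1 of the Nelfb-/- replicates, and Timp1 without CTL replicate 1 or 2 or Nelfb-/- replicate 2 or 3. The highest adjusted p from limma was 0.12 for Saa3, 0.11 for Orm2 and 0.15 for Timp1. Without CTL replicate 3, the log2 fold changes of Orm2 and Timp1 were 3.18 and 2.87.

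Of 14 tested genes for cytokines, receptors and NF-kappaB subunits or regulators linked to the induction of Il6, 5 were called higher and 1 lower. Together they were 42.9%, beside 11.2% of all genes tested. Il33, a cytokine released from damaged stromal cells, rose from 0.988 ± 0.239 to 12.3 ± 8.0 CPM, a difference of 3.28 on the log2 scale (adjusted p = 0.021 from limma). Tnf, made mainly by macrophages, had 4 reads in each CTL library and 24, 10 and 22 reads in Nelfb-/- replicates 1, 2 and 3, a difference of 2.07 on the log2 scale (adjusted p = 0.025 from limma). The order of Tnf reads among the Nelfb-/- libraries was that of the macrophage sum. In CTL, where the sum ranged from 245 to 871 CPM, the 4 reads of Tnf per library were too near the floor of 3 reads to give an order. The part of macrophages in the Tnf values was not tested. Both calls were lost when CTL replicate 1 or 2, or Nelfb-/- replicate 2 or 3, was left out (limma, adjusted p up to 0.091 for Il33 and 0.12 for Tnf), and the value of Il33 was 4.03 without Nelfb-/- replicate 1. Tlr2, a receptor for bacterial lipoproteins, rose from 4.14 ± 1.20 to 15.4 ± 3.46 CPM, a difference of 1.90 on the log2 scale (adjusted p = 0.011 from limma; without Nelfb-/- replicate 3, adjusted p = 0.061). Il1rl1, the receptor for Il33, had the largest change of the list at a difference of 6.71 on the log2 scale (adjusted p = 0.0040 from limma), and at 7.45 without CTL replicate 3.

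**Figure D5:**
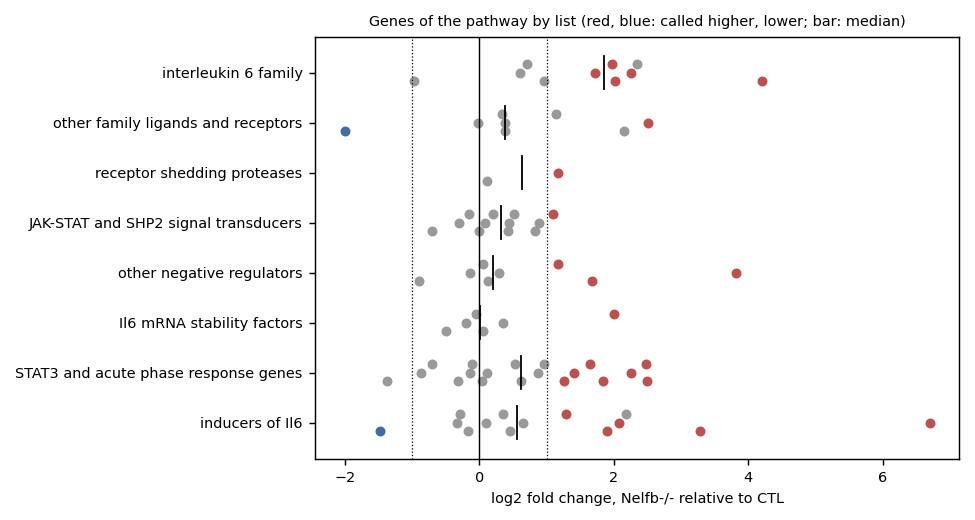
Log2 fold change of every tested gene of the family and of the 7 further lists in Nelfb-/- cells relative to CTL, with genes called higher in red, genes called lower in blue, other genes in grey, a bar at the median of each list and dotted lines at the 2-fold limits. The family has a median of 1.85, and the medians of the other lists lie below it.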

How the data were processed

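RNA was extracted from CTL and Nelfb-/- cells in 3 biological replicates each, and libraries were sequenced by the authors. The submitters' processing notes list STAR 2.7, Partek 9.0.20.0202 and the mm10 build. How reads were counted, and whether strand was used, is not given in the sources used here. The deposited values are CPM (reads of a gene per 1e+06 reads), normalized by the authors to the same total in every library, with 0.0001 added, which was subtracted here. The table lists 17924 genes, each with at least 10 reads in its best library. The value of 1 read was found from the smallest steps of each column. Between 69.5% and 72.1% of values of 20 reads or fewer were whole reads (within 0.02), too few to recover counts, so no count model was used.

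One depth for all libraries, 22.3 M reads (M, 1e+06), was used to turn CPM into reads, 1 read was added, and log2 values were tested with limma 3.58.1 (R 4.3.3) with an abundance trend, for the 16252 genes that averaged 10 reads or more. Adding 1 read understates the change of low genes. P-values were adjusted by Benjamini-Hochberg over all genes tested, and genes were called at an adjusted p of at most 0.05 and at least 2-fold. The fit was tested on simulated data. Receptor ratios, with 1 read added, were compared by an exact permutation test in R 4.3.3. The ratios given for single libraries have no read added. The exact interval of the Il6 read ratio is binomial and was computed with scipy 1.17.1. Intervals and floors of 3 reads cover counting error only. Replicates are biological per the study's methods, which do not say whether each is from its own animal, so p-values measure the spread between these cultures. Coordinates and exon lengths are from GENCODE vM21 (mm10). Alternatives changed the pseudocount, filter, scaling, variance model, replicate block and libraries included. The family and the further lists were chosen with earlier results of these data known. All 10 members are named, with Nelfb and the called genes of each list, at most the 4 with the largest change, beside Il11ra1, Cntfr, Jak1, Stat3 and Socs1 whatever their values; 1 further gene is not reported here.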

Additional observations from a re-analysis of the deposited data

How the results depend on the processing

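No member and no receptor ratio changed direction under those of 15 other ways of processing that gave it a value, and no member did without CTL replicate 3 and Nelfb-/- replicate 1 together, an alternative added after the data were seen. The 5 members called higher became 2 (Osmr and Socs3) with 1 CPM added and a mean of at least 10 CPM, a filter that removes Il6, Il11, Lif, Osm and Clcf1 from the test. They became 2 (Il6 and Il11) without moderation of the variances. With each library left out in turn, between 1 and 6 members were called higher and between 0 and 1 lower. Without both doubted libraries 6 were called higher and 1, Il6ra, lower. For all genes, the counts higher and lower were 513 and 335 with the CPM filter, 438 and 246 without moderation, 2857 and 1518 without both libraries, and between 303 and 1683 and between 144 and 771 with each library left out. Of the further lists, 9 genes were called higher and 0 lower without moderation, 1 lower with the CPM filter, 6 lower without both libraries, and between 5 and 20 higher and 1 and 3 lower with each library left out. The fitted value of Il6 depended on the pseudocount and lay between 2.98 and 4.61 over 14 alternatives. Samples of the same replicate number correlated at 0.52, -0.39 and 0.52 in their deviations from the group means. Unlike numbers reached similar values, such as 0.48 for CTL replicate 2 with Nelfb-/- replicate 1 and 0.54 for CTL replicate 3 with Nelfb-/- replicate 2. These correlations therefore cannot show whether the numbers pair the samples. With the replicate block, 5 members were called higher, 1505 genes were called higher and 670 lower, and the ratios of Osmr to Lifr, Osmr to Il6st and Il6ra to Il6st each had an exact permutation p = 0.25, the smallest that 3 pairs allow.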

Other observations

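Across the 6 libraries, the log2 values of 562 genes outside the lists had a Pearson correlation above 0.95 with those of Il6, and 795 had one with those of Osmr. The 5 genes most like Il6 were Col6a5, Gm11216, Map3k14, Serpinb9e and Runx1, with correlations from 0.998 to 0.999. Those most like Osmr were Mcm9, Lpcat4, H2bu2, Gfra4 and Plxnb2. These values describe 6 libraries that share the split into 2 groups, and they carry no test. Map3k14, which encodes a kinase of the noncanonical NF-kappaB pathway, had from 9.65 to 10.03 CPM in CTL. Nelfb-/- replicates 1, 2 and 3 had 24.99, 34.1 and 34.5 CPM of it. Since Map3k14 was picked by its correlation with Il6, its likeness to Il6 across the libraries is not a separate result. Runx1, a transcription factor, had between 19.6 and 21.7 CPM in CTL, against 60.6, 78.8 and 80.5 CPM after deletion of Nelfb.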
